A study of Mus musculus with 6 samples.

Results

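Adipokines are proteins that fat cells secrete into the blood. This report describes 9 genes of that system in irradiated mouse bone: the adipokine genes Adipoq, Lep, Cfd, Rbp4, Rarres2, Retn and Nampt, and the adiponectin receptor genes Adipor1 and Adipor2. The 9 genes were taken by gene name from a table of 43346 genes, and each of the 9 had 1 row and enough counts to be tested. The 6 libraries came from femurs of C57BL/6 mice, an inbred laboratory strain, at 4 months of age. In the radiated group (3 libraries) the right femur had received a single X-ray dose of 24 Gy, at 6.6 Gy per minute, over 5 mm of the distal metaphysis, the marrow-filled end of the shaft near the knee. The non-radiated group (3 libraries) was the opposite, left femur of irradiated animals, so its cells shared a circulation with a treated leg. Both groups were collected on day 21, and muscle was cut away before the bone with its marrow was homogenized. No untreated animals are among the samples, and each library mixes all the cells of the piece.

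Fat cells of the bone marrow store lipid in droplets and release adiponectin (Adipoq), leptin (Lep) and adipsin (Cfd), as fat cells elsewhere do. In marrow, adiponectin mRNA is also made by Cxcl12-rich stromal cells that carry the leptin receptor and hold little or no lipid, so Adipoq alone does not mark a lipid-filled cell. Several genes called adipokines are made widely: Nampt encodes an enzyme of NAD synthesis, Rbp4 the plasma carrier of retinol, and Rarres2 the chemoattractant precursor chemerin.

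Of the 9 genes 5 rose in radiated femur: Lep 13.7-fold, Cfd 8.16-fold, Rbp4 2.82-fold, Adipoq 2.03-fold and Rarres2 1.94-fold. None fell. Retn was 1.5-fold higher without passing the test, and Nampt, Adipor1 and Adipor2 differed by less than 1.1-fold in either direction. The test was edgeR's quasi-likelihood test with Benjamini-Hochberg adjustment over all 18757 genes tested, and a gene was called at an adjusted p under 0.05. Among all genes tested 7.80% were called, 4.56% as higher and 3.24% as lower. For 6 of the 9 genes every radiated library was above every non-radiated one, while 25.9% of all genes tested were free of overlap in one direction or the other. The median log2 fold change was 0.95 over the 9 genes and 0.00 over all genes tested. In bulk tissue, more cells of a type and more mRNA per cell cannot be told apart.

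**Figure D1:**
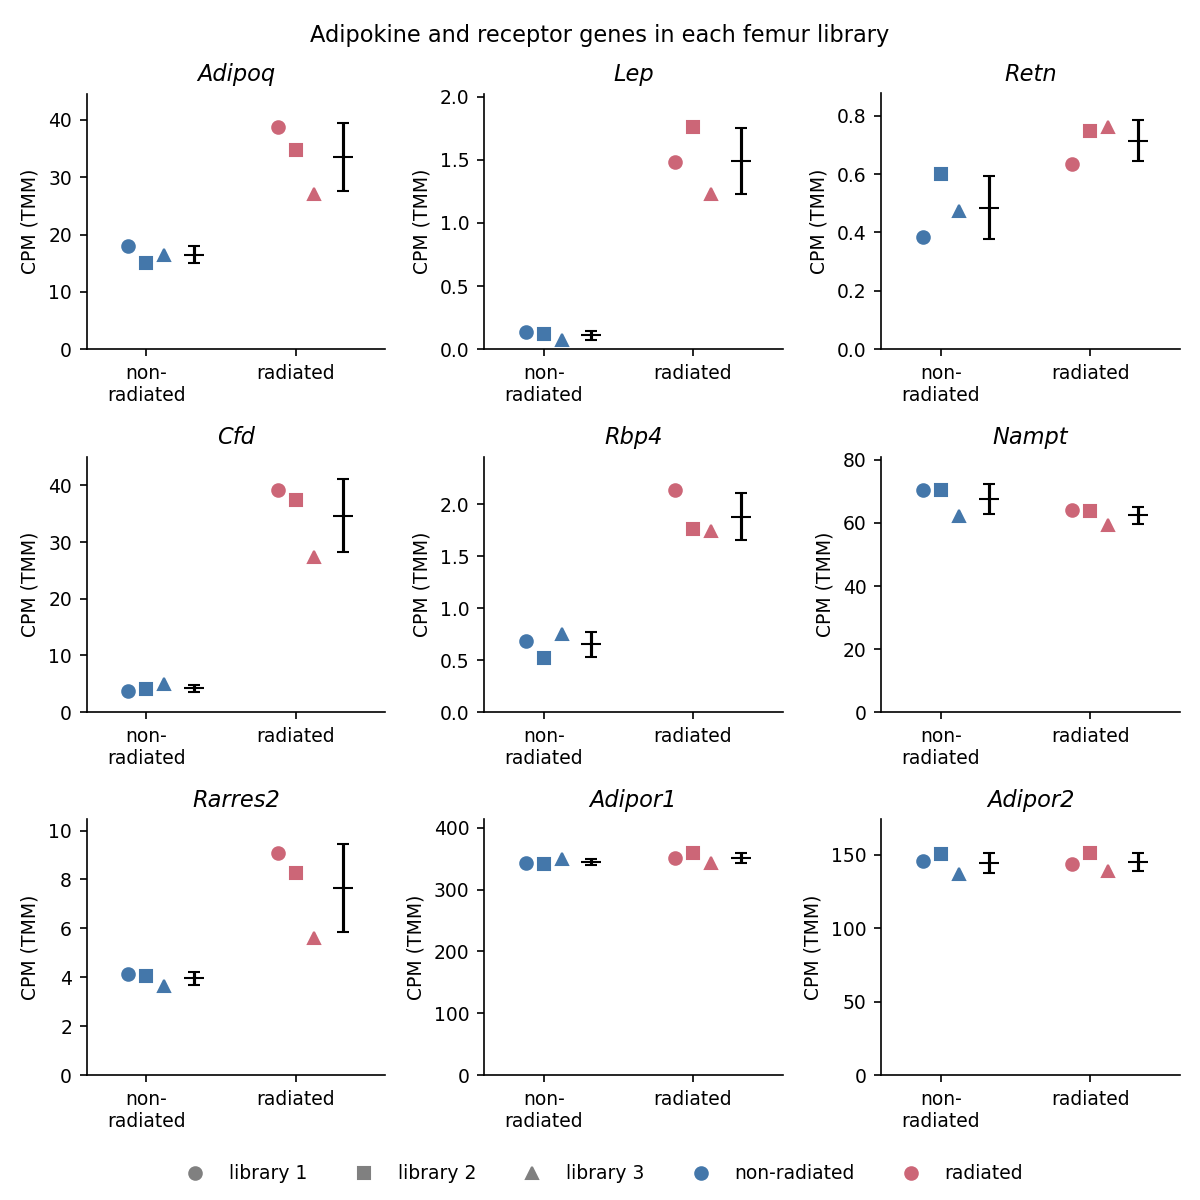
Level of each gene in each library (TMM-scaled CPM) on linear axes from 0, with non-radiated libraries in blue, radiated in red, and black bars for mean ± SD (n = 3). For Adipoq, Lep, Retn, Cfd, Rbp4 and Rarres2 all radiated points lie above all non-radiated points, while those of Nampt, Adipor1 and Adipor2 overlap.

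Total gene counts were between 34034251 and 48708383 per library. Levels are given as CPM, the counts per 1000000 of a library total scaled by TMM, and values of a group are listed in the order of its libraries 1, 2 and 3. The row AY036118 took 32.9% of the counts of non-radiated library 2 and at most 5.61% elsewhere, which left fewer counts for the other genes of that library. The 1463 genes called became 764 when radiated library 1 was left out, 819 for non-radiated library 2 and 905 for non-radiated library 1. Cdkn1a, a p53 target that marks the response to radiation, was 3.89-fold higher in the radiated group, with no overlap. All 5 bone-forming cell markers were detected in every library.

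The start regions of 3 of the genes that rose, Lep, Adipoq and Cfd, are shown because these are the hormones and the protease for which fat cells are best known and they went up by very different amounts. Each is the 250 bases before the RefSeq transcription start on the gene's own strand (build GRCm38.p6, plus strand for all 3), at chr6:29059971-29060220, chr16:23146286-23146535 and chr10:79890603-79890852. Capitals mark matches, on either strand, to any of 6 motifs. These were the TATA box TATAAA, the CCAAT box, the GC box written GGGCGG and the C/EBP-type motif TTGCNNAA. Also among the 6 were the nuclear receptor element AGGTCA and a PPAR-type pair of that element with 1 base between its copies.
Lep: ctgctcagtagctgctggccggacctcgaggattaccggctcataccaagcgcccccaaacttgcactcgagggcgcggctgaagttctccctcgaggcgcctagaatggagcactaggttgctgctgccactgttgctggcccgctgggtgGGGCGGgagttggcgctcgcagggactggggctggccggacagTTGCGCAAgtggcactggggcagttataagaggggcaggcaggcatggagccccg
Adipoq: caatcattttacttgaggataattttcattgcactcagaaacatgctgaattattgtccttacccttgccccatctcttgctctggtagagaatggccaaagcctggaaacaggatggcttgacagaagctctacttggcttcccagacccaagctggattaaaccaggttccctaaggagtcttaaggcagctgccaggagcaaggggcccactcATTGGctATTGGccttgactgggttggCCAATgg
Cfd: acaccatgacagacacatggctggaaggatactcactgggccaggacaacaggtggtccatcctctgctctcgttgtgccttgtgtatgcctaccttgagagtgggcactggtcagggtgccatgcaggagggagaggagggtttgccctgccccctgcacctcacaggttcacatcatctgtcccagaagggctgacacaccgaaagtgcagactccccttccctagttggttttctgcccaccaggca

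The Lep window held 1 match to TTGCNNAA, 55 to 48 bases before the start, and 1 GGGCGG. Matches to TTGCNNAA were found in 9.56% of 32851 RefSeq windows of this length. The Adipoq window held 3 CCAAT matches in the last 34 bases before the start, and 33.9% of all windows held at least 1. The Cfd window held none of the 6 motifs as spelled here. The PPAR-type pair was in 0.033% of all windows and in none of the 10 windows found for 8 of the 9 genes. For 8 of those 10 windows the bases just after the start were found in a GENCODE transcript of the gene. They were not found for the Adipor2 window and 1 Rbp4 window. Among those 10 windows, a single AGGTCA was found in that of Nampt alone, and TTGCNNAA in 1 Rbp4 window besides that of Lep. A match describes letters in a window and says nothing about binding.

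Adipoq (ENSMUSG00000022878, chromosome 16, 23146536 to 23158028) encodes adiponectin, a hormone that raises insulin sensitivity. Its level was 18.0, 15 and 16.4 CPM in the opposite femur. It was 38.8, 34.7 and 27.0 CPM in radiated femur. Every radiated library was above every non-radiated one, and radiated library 3 was the lowest of its group. This was a rise of 1.02 ± 0.13 (SE) on the log2 scale, or 2.03-fold with a 95% interval of 1.65 to 2.49 (edgeR, adjusted p 0.00191). Here and below, intervals come from the edgeR fit.

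Lep (ENSMUSG00000059201, chromosome 6, 29060220 to 29073877) encodes leptin, the hormone that signals fat stores to the brain. It had 5, 3 and 3 counts in the opposite femur and 56, 94 and 55 counts in radiated femur. Leptin mRNA was thus close to the limit of detection in the opposite femur and clearly present in each radiated piece. On the CPM scale the non-radiated libraries were at 0.0708 to 0.137 and the radiated ones at 1.23 to 1.76. Summed over each group, 205 counts against 11 gave a depth-corrected ratio of 14.2, with an exact 95% interval of 7.80 to 29.0 that covers counting error only. The edgeR log2 fold change was 3.77 (SE 0.33, adjusted p 0.000185), which was the largest of the 9 genes. With so few counts in the non-radiated libraries its size is uncertain, and the fitted interval ran from 8.21-fold to 22.7-fold.

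Cfd (ENSMUSG00000061780, chromosome 10, 79890853 to 79892656) encodes adipsin, or complement factor D, the protease that starts the alternative complement pathway by cutting factor B. Its level was 3.70, 4.03 and 4.93 CPM in the opposite femur. In radiated femur it was 39.2, 37.4 and 27.3 CPM. The gap between the groups was far wider than the spread within either. The gene rose by 3.03 ± 0.16 (SE) on the log2 scale, or 8.16-fold with a 95% interval of 6.33 to 10.5 (edgeR, adjusted p 1.43e-05).

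Rbp4 (ENSMUSG00000024990, chromosome 19, 38116620 to 38125321), the retinol carrier, was a low gene, with 13 to 32 counts in non-radiated and 78 to 94 counts in radiated libraries. Its level was 0.686, 0.519 and 0.755 CPM in the opposite femur, and 2.14, 1.76 and 1.75 CPM in radiated femur. The groups did not overlap. Rbp4 rose by 1.5 ± 0.21 (SE) on the log2 scale, or 2.82-fold with a 95% interval of 2.02 to 3.94 (edgeR, adjusted p 0.00315).

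Rarres2 (ENSMUSG00000009281, chromosome 6, 48569698 to 48572670), the chemerin gene, was at 4.14, 4.07 and 3.66 CPM in the opposite femur. In radiated femur it was at 9.09, 8.26 and 5.62 CPM. All radiated libraries were higher, but radiated library 3 was nearer to the non-radiated group than the other two. Its rise was 0.95 ± 0.18 (SE) on the log2 scale (edgeR, adjusted p 0.0128). The call was lost without radiated library 1 (log2 fold change 0.81, edgeR adjusted p 0.0512) and with a term for muscle markers (0.71, adjusted p 0.0739). Rarres2 overlaps Lrrc61 on the opposite strand over 1025 bases, and whether the counting used strand is not stated. Lrrc61 itself was at 12.4 ± 1.23 and 13.8 ± 0.568 CPM (SD, n = 3) in the non-radiated and radiated group, with overlap.

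Retn and Nampt did not pass the test. Retn (ENSMUSG00000012705, chromosome 8, 3655770 to 3660110) encodes resistin, which in mice is a product of fat cells. It had 14, 15 and 20 counts in the opposite femur and 24, 40 and 34 in radiated femur. In CPM the groups came close without overlapping, at 0.384 to 0.599 and 0.634 to 0.762. The log2 difference was 0.59 ± 0.27 (SE; edgeR, adjusted p 0.243), with a 95% interval from 0.990-fold to 2.27-fold, so a doubling is within what these counts allow.

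Nampt (ENSMUSG00000020572, chromosome 12, 32820335 to 32853369), once named visfatin, encodes the enzyme that makes nicotinamide mononucleotide for NAD synthesis in most cells. Its level was 70.4, 70.5 and 62.3 CPM in the opposite femur and 64.1, 63.8 and 59.4 CPM in radiated femur. The groups overlapped. The log2 difference was -0.12 ± 0.07 (SE; edgeR, adjusted p 0.356), with a 95% interval from 0.832-fold to 1.02-fold. A long noncoding RNA gene, Gdap10, lies on the same strand across 5033 bases of Nampt, and how reads in the shared part were assigned is not stated.

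Adipor1 and Adipor2 encode membrane receptors for adiponectin that act through AMP-activated kinase, ceramide turnover and PPAR-alpha. Adipor1 (ENSMUSG00000026457, chromosome 1, 134415378 to 134433351) was at 344, 341 and 350 CPM in the opposite femur and at 351, 359 and 343 CPM in radiated femur. Adipor2 (ENSMUSG00000030168, chromosome 6, 119353150 to 119417704) was at 146, 150 and 137 CPM in the opposite femur and at 144, 151 and 139 CPM in radiated femur. For both genes the groups overlapped. The edgeR interval of the fold was 0.937 to 1.11 for Adipor1 (adjusted p 0.839) and 0.918 to 1.10 for Adipor2 (adjusted p 0.972).

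The order of the genes changed with radiation. On a scale of CPM per kilobase of gene length, which allows levels to be set side by side between genes, the non-radiated group ran from Adipor1 at 68.6 ± 0.862 (SD, n = 3) through Adipor2 at 24.1 ± 1.14, Nampt at 14.9 ± 1.04 and Adipoq at 11.9 ± 1.10. Below these came Rarres2 at 5.59 ± 0.370, Cfd at 4.57 ± 0.689, Rbp4 at 0.504 ± 0.0935, Retn at 0.307 ± 0.0684 and Lep at 0.0326 ± 0.0103. In that order the neighbours Rarres2 and Cfd overlapped, and all other neighbours were apart in every library. In the radiated group Adipor1 again led at 69.8 ± 1.66, followed by Cfd at 37.5 ± 6.96, Adipoq at 24.3 ± 4.32 and Adipor2 at 24.2 ± 1.02. Nampt (13.7 ± 0.588), Rarres2 (10.8 ± 2.55), Rbp4 (1.45 ± 0.172), Retn (0.453 ± 0.0446) and Lep (0.444 ± 0.0787) followed. Adipoq overlapped with Adipor2, and Retn with Lep. Cfd thus moved from rank 6 to rank 2 and stood above Adipoq in the radiated group, while it was below Adipoq in the opposite femur.

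Because scaling cancels within a library, ratios of counts show whether genes moved by different amounts. The ratio of Cfd to Adipoq counts was 0.206, 0.270 and 0.300 in the opposite femur and 1.01, 1.08 and 1.01 in radiated femur. The radiated libraries were nearly equal to one another and all higher, by 2.01 on the log2 scale (4.04-fold). Adipoq was also set against Lepr, the leptin receptor, which marks the stromal cells that transcribe Adipoq. That ratio was 0.156, 0.153 and 0.161 in the opposite femur and 0.490, 0.455 and 0.376 in radiated femur, a difference of 1.48 on the log2 scale. The ratio of Adipor1 to Adipor2 was 2.27 to 2.55 and 2.37 to 2.46 in the non-radiated and radiated group, which overlapped. In a two-sided exact permutation test over the 20 labelings, the first 2 ratios each had p = 0.1 and the last p = 0.8, or 0.15, 0.15 and 0.8 after Benjamini-Hochberg adjustment over the 3 ratios. With 3 libraries against 3 no p under 0.1 can be reached. With same-numbered libraries taken as pairs, an exact sign-flip permutation test over 8 labelings gave two-sided p = 0.25, 0.25 and 0.75, where 0.25 is the smallest p it allows.

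**Figure D2:**
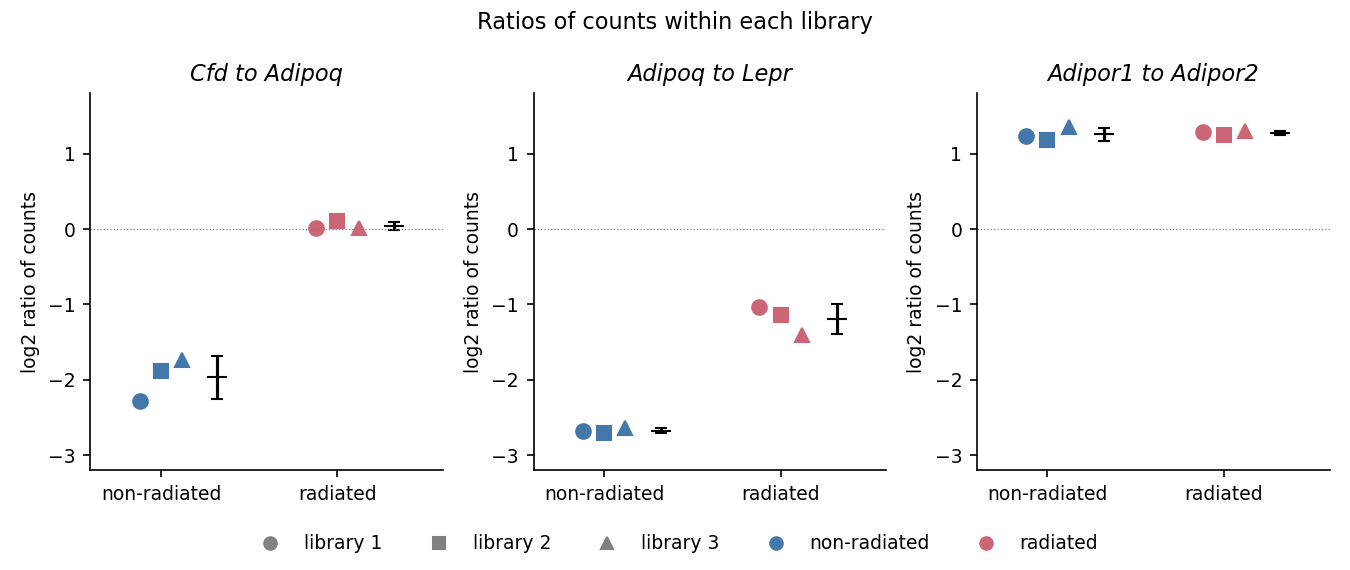
Log2 ratio of counts within each library for Cfd to Adipoq, Adipoq to Lepr and Adipor1 to Adipor2, with points for libraries, black bars for mean ± SD (n = 3) and a dotted line at equal counts. The radiated libraries lie near equal counts for Cfd to Adipoq (1.01 to 1.08) and well under it in the non-radiated group, while the receptor ratio overlaps.

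Other genes of fat cells were set beside the adipokines through a list of 12 markers, none of them among the 9 genes. Of these 8 rose, none fell and 4 did not pass the test, while 4.56% of all genes tested were called as higher. The median log2 fold change over the list was 0.65. The lipid droplet proteins Plin1 and Plin4 and the droplet fusion protein Cidec rose most, by 3.6, 3.16 and 3.96 on the log2 scale (edgeR adjusted p 9.61e-05, 1.53e-05 and 5.73e-05). These sizes are near those of Lep and Cfd. The fatty acid binding protein gene Fabp4 rose by 0.54 (edgeR adjusted p 0.00622). The 4 that did not pass were Cebpa, Acsl1, Dgat2 and Cd36, with log2 fold changes of 0.22, -0.04, -0.02 and -0.01. The summed level of the 12 markers was 692 to 788 CPM in the non-radiated and 889 to 1035 CPM in the radiated libraries. A large part of that sum was Acsl1 (group means 271 and 263 CPM, non-radiated first) and Cd36 (190 and 189 CPM). Lpl, also in the sum, had group means of 114 and 240 CPM. Markers of brown fat were scarce: the thermogenic gene Ucp1 had 0 counts in all libraries but non-radiated library 3, with 4, and Cidea had at most 8. Cox8b had 1 to 16 counts in the opposite femur and 37, 349 and 16 counts in radiated femur, highest in the library with the most muscle marker RNA, and it did not pass the test (edgeR adjusted p 0.109).

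**Figure D3:**
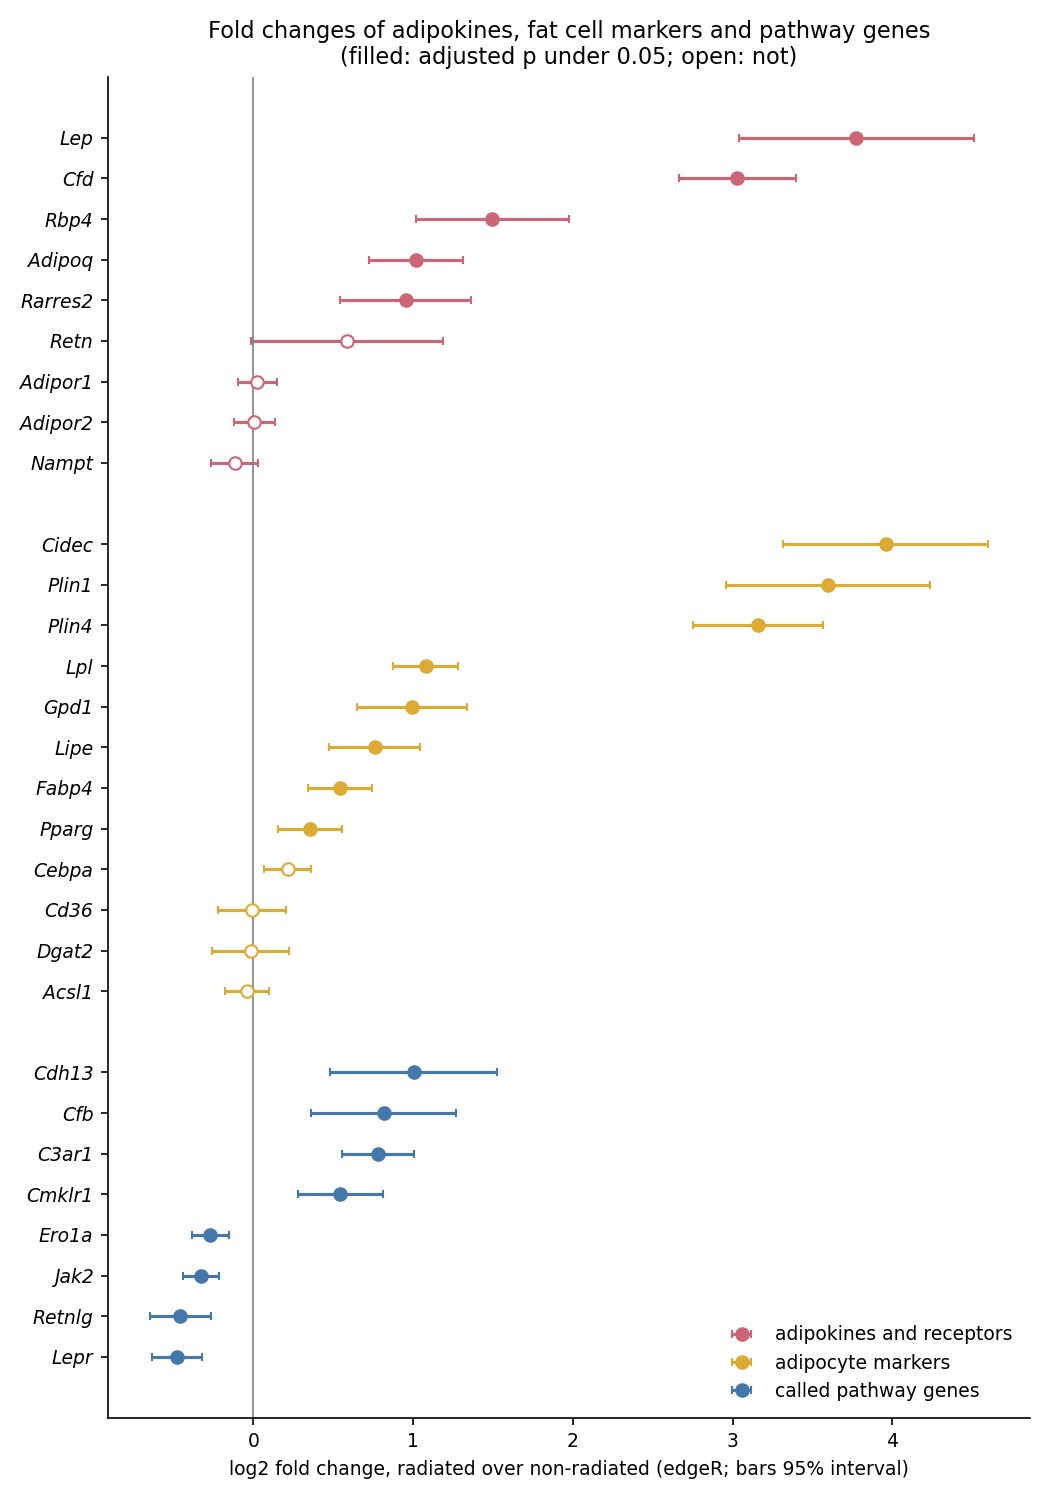
Log2 fold change, radiated over non-radiated, with 95% intervals from edgeR for the 9 genes (red), the 12 fat cell markers (yellow) and the 8 pathway genes that passed the test (blue), where filled points have an adjusted p under 0.05. Lep (3.77) and Cfd (3.03) lie with Cidec, Plin1 and Plin4, whereas Adipoq (1.02) lies near Lpl and Gpd1.

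Markers of other cells also moved. The summed level of 5 stromal markers (among them Lepr, Cxcl12 and Kitl) was 1251 to 1276 CPM in the non-radiated and 966 to 1084 CPM in the radiated libraries. All 5 had negative log2 fold changes, and Lepr was the 1 that passed the test. None of the 5 was at 0, and the part that stromal cells had in the rise of Adipoq was not tested. The summed level of 5 bone-forming cell markers was 4437 to 6731 CPM in the non-radiated and 3300 to 4166 CPM in the radiated libraries. All 5 had negative log2 fold changes with an unadjusted edgeR p under 0.05 (median -0.51), as had 4040 of all 18757 genes tested in either direction. Col1a1, the main collagen of bone, was the 1 of the 5 that passed the test (-0.61, edgeR adjusted p 0.0470), while 7.80% of all genes tested were called. None of these was at 0, and their part in the adipokine values was not tested.

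Skeletal muscle markers differed widely between libraries. Their summed level (11 genes) was 191, 330 and 164 CPM in the opposite femur, and 741, 2336 and 190 CPM in radiated femur. None of the 11 genes was at 0. All 11 had positive log2 fold changes (median 2.27) with an unadjusted edgeR p under 0.05, and none passed the test at the adjusted threshold. Of all 18757 genes tested, 4040 had an unadjusted p under 0.05 in either direction. Radiated library 3 was the 1 radiated library within the non-radiated range for muscle, and in it Lep, Cfd, Adipoq, Rbp4 and Rarres2 were above every non-radiated library. It also had the lowest value of its group for each of those 5 genes. With a muscle term in the fit, the log2 fold changes were 3.51 for Lep, 2.85 for Cfd, 1.54 for Rbp4 and 0.90 for Adipoq, all 4 still called (edgeR adjusted p 0.000401, 1.66e-05, 0.00930 and 0.00764), while Rarres2 was not. The part that muscle RNA had in these changes was not tested.

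**Figure D4:**
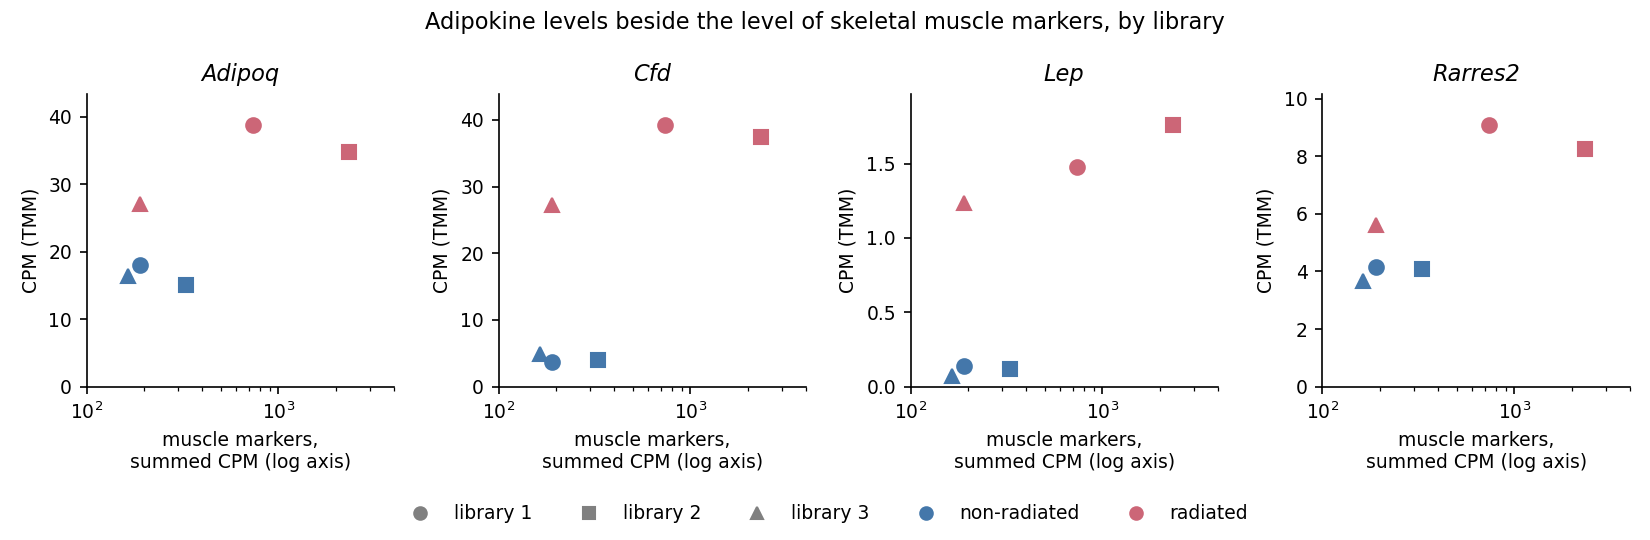
Level of Adipoq, Cfd, Lep and Rarres2 in each library (CPM) against the summed level of 11 skeletal muscle markers (CPM, log axis), with non-radiated libraries in blue and radiated in red. Radiated library 3 (triangle) has muscle markers at 190 CPM, within the non-radiated range, and lies above them for each of the 4 genes.

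The wider pathway was described through a list of 43 genes: receptors, signal carriers, assembly factors and relatives of the 9 genes. Of these 37 had enough counts to be tested, 4 rose and 4 fell (8 called, against 7.80% of all genes tested), and the list's median log2 fold change was 0.00. The 4 that rose were Cdh13, Cfb, C3ar1 and Cmklr1, and the 4 that fell were Lepr, Jak2, Retnlg and Ero1a. Leaving out library 1 or 2 of either group brought the count to 5. None of the 4 that fell was called when libraries were scaled by their totals alone (edgeR adjusted p 0.617 to 0.882). Of the 14 alternative settings, 13 called Lepr, 13 Jak2, 13 Retnlg and 9 Ero1a.

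For adiponectin, Cdh13, which encodes T-cadherin, a surface protein that binds the hormone's larger forms, was at 1.94 ± 0.158 and 3.87 ± 1.20 CPM (SD, n = 3) in the non-radiated and radiated group. It rose by 1.0 on the log2 scale (edgeR, adjusted p 0.0307). The call was lost without any 1 library except radiated library 3 (adjusted p 0.0733 to 0.0928) with limma-voom (adjusted p 0.0632), and with the muscle term (log2 fold change 0.55, adjusted p 0.168). Ero1a, an oxidase of the endoplasmic reticulum that helps to assemble adiponectin, fell by 0.27 on the log2 scale (edgeR adjusted p 0.0141). That call was lost without non-radiated library 2 (adjusted p 0.0604), radiated library 1 (0.0610) or radiated library 2 (0.0532), and with the muscle term (0.0686). The intracellular adaptors Appl1 and Appl2, the kinase genes Prkaa1, Prkaa2 and Stk11 and the chaperone gene Erp44 did not pass the test.

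For leptin, the ligand rose while its receptor fell. Lepr was at 116, 98.2 and 102 CPM in the opposite femur and at 79.2, 76.3 and 71.9 CPM in radiated femur, with no overlap. It fell by 0.48 ± 0.07 (SE) on the log2 scale (edgeR, adjusted p 0.00381). Jak2, the kinase bound to this and other cytokine receptors, was at 174 to 182 CPM in the non-radiated and 139 to 146 CPM in the radiated libraries, a log2 difference of -0.33 (edgeR, adjusted p 0.00456). The downstream genes Stat3, Socs3, Ptpn1 and Sh2b1 had log2 fold changes of -0.10, 0.06, 0.02 and 0.02 and did not pass the test.

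For adipsin, its substrate gene Cfb, complement factor B, was at 8.23, 8.54 and 8.09 CPM in the opposite femur and at 18.3, 15.8 and 9.66 CPM in radiated femur. The log2 fold change was 0.82 (edgeR adjusted p 0.0402). The call was lost without any 1 library except radiated library 3 (adjusted p 0.0868 to 0.132), with limma-voom (0.0828) and with the muscle term (0.226). Cfb (chromosome 17, 34856374 to 34862518) overlaps the gene Gm20547 on the same strand over 6107 bases, nearly its whole span. Gm20547 had 326 to 1119 counts per library and Cfb 214 to 844. How reads in the shared part were assigned is not stated. C3ar1, the receptor for the C3a fragment, rose from 9.96 ± 0.628 to 17.1 ± 1.67 CPM (SD, n = 3), a log2 difference of 0.78 (edgeR, adjusted p 0.00191). C3, the central component, differed by -0.20 on the log2 scale (edgeR, adjusted p 0.245), and Cfp, which encodes properdin, did not pass the test. Macrophages also express C3ar1, and 5 of 7 macrophage markers rose, while 4.56% of all genes tested were called as higher. The summed level of the 7 was 716 to 760 CPM in the non-radiated and 889 to 1068 CPM in the radiated libraries. None of those 7 was at 0, and their part in these changes was not tested.

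For chemerin, the signalling receptor gene Cmklr1 was at 8.26, 9.42 and 11 CPM in the opposite femur and at 14.2, 14.8 and 12.9 CPM in radiated femur. The groups did not overlap, and the log2 fold change was 0.55 (edgeR adjusted p 0.0242). The call was lost when library 1 or 2 of either group was left out (adjusted p 0.0684 to 0.0891) and with the muscle term (0.109). Ccrl2, which binds chemerin without signalling, differed by 0.04 on the log2 scale (edgeR, adjusted p 0.882). Cmklr1 is another gene that macrophages express.

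For resistin, the neutrophil relative Retnlg was at 436 to 478 CPM in the non-radiated and 290 to 360 CPM in the radiated libraries, a log2 difference of -0.46 (edgeR, adjusted p 0.0111). All 9 neutrophil markers had negative log2 fold changes, with a median of -0.36, and none passed the test at the adjusted threshold. Of the 9, 8 had an unadjusted edgeR p under 0.05, against 4040 of all 18757 genes tested in either direction. The summed level of the 9 neutrophil markers was 15091 to 19161 CPM in the non-radiated and 11981 to 14069 CPM in the radiated libraries. None was at 0, and their part in the fall of Retnlg was not tested. For Nampt, none of the NAD genes Nmnat1, Nmnat2, Nmnat3, Naprt, Nmrk1, Sirt1 and Cd38 passed the test. For Rbp4, the plasma partner gene Ttr was listed at 0 in all libraries, and the receptor gene Stra6 and the retinol-esterifying enzyme gene Lrat had at most 4 counts.

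The genes with the pattern most like that of 3 of the 9 genes were sought by Pearson correlation of log2 CPM over the 6 libraries, among 15573 other genes averaging 1 CPM or more. For Cfd they were Plin4 (r = 0.998), Aoc3 (0.997), Aqp7 (0.997), Cep170b (0.997) and Phlda3 (0.996). Each of these rose, by 1.02 to 3.16 on the log2 scale. For Adipoq they were Sdr39u1 (0.996), Fbn1 (0.994), Pea15a (0.993), Gbp4 (0.993) and Pmp22 (0.992), and none of these is among the 12 fat cell markers. They rose by 0.39 to 0.69. For Nampt they were Ssbp2 (0.992), 1190007I07Rik (0.989), Amer2 (0.986), Nqo1 (0.986) and Mtmr6 (0.986), none of them called. The 6 points share the group difference and the depth of each library, and among so many genes high values arise readily, so these are descriptions.

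**Figure D5:**
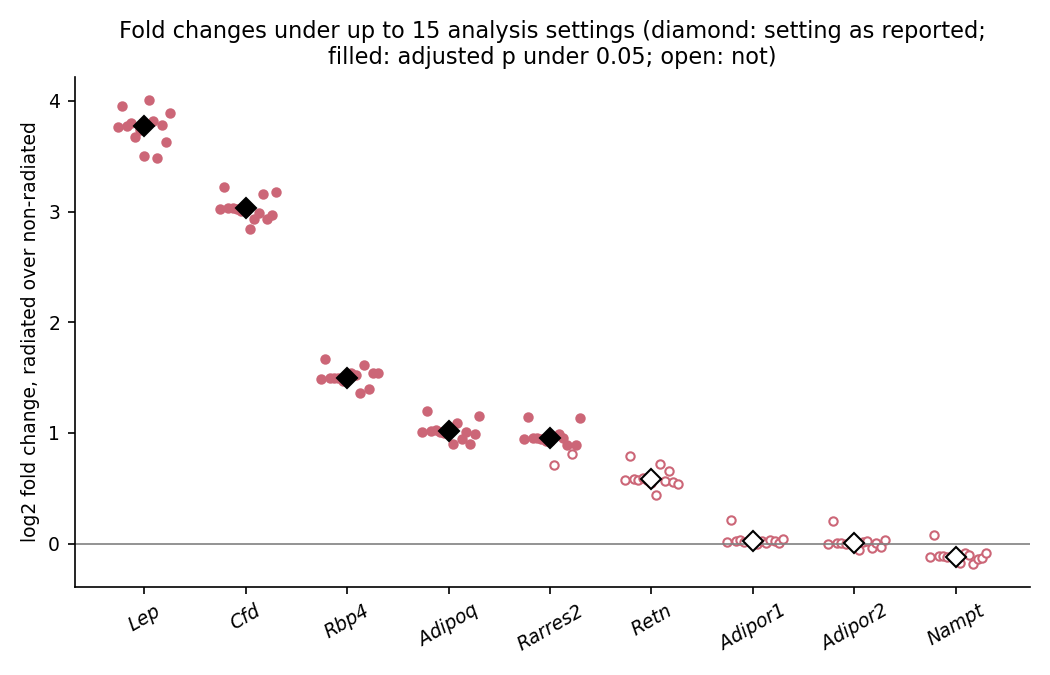
Log2 fold change of each of the 9 genes as reported (black diamond) and under up to 14 other analysis settings (small points), filled where the adjusted p is under 0.05. Lep, Cfd, Rbp4 and Adipoq are filled in every setting that tested them, Rarres2 is open in 2, and Retn, Adipor1, Adipor2 and Nampt are open in all.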

How the data were processed

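RNA-seq was done on 3 radiated and 3 non-radiated femur libraries from a stranded mRNA kit, per the labels' protocols. Reads were aligned with STAR 2.5.2b and counted with featureCounts on mm10, per the submitters' processing notes. The annotation and the strand setting are not given in the sources used here. The deposited table holds raw gene counts and RPKM values, per the file headers. RPKM was not used, since what the authors' library constant counts is not stated.

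Counts were tested with edgeR 4.0.16 (R 4.3.3): filterByExpr (minimum count 10, minimum total 15), TMM, glmQLFit and glmQLFTest with the group as the only term, and Benjamini-Hochberg over all genes tested. CPM is TMM-scaled, and the SE is the log2 fold change divided by the square root of F. Ratios within a library had 0.5 counts added. Of 110 list entries all were found, 3 through gene ID or synonym. Promoter windows came from RefSeq tables. Coordinates are the table's, counted from 1.

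The 9 genes and all lists were chosen with earlier results of these data known. Named were the 9 genes, called pathway genes, the first markers of a list, and the 5 genes most like Adipoq, Cfd and Nampt. Other genes named were chosen after their values were seen.

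Libraries of a group differed by more than sampling noise (chi-square per degree of freedom 16.6 to 580). The highest values, 492 and 580, were for the pairs with non-radiated library 2, and the other pairs were at 16.6 to 121. The row AY036118 was kept in these values, and its part in them was not tested. The p-values measure the spread between the libraries of a group, which nothing in the labels ties to separate animals. Same-numbered libraries of the groups deviated together from their group means (r 0.166, 0.277 and 0.187 across genes for numbers 1, 2 and 3). The deviations of a group sum to 0. The values for different numbers (-0.170 to -0.008) must therefore lean negative and add no separate support. The labels do not give pairs. The numbers were taken as pairs only in 1 alternative, which blocked on the pair, and in the sign-flip test of the ratios. The reported edgeR fold changes, intervals and p-values come from the fit without pairs. Scaling was also done by the median-of-ratios factors of DESeq2 1.42.0 and by unscaled library totals. Genes were also tested without a filter, or only if they averaged 1 CPM or more. The Wald test of DESeq2 and limma-voom (limma 3.58.1) replaced the test. A muscle marker term was added, and each library was left out in turn.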

Additional observations from a re-analysis of the deposited data

How the results depend on the processing

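Of the 9 genes, 5 were called under each alternative except 3 that called 4: a mean of at least 1 CPM, which left Lep untested, the muscle term and leaving out radiated library 1, which both lost Rarres2. With the replicate block 5 of the 9 were called, and it changed no call among them. Lep ranged from 3.49 to 4.01 on the log2 scale, Cfd from 2.85 to 3.22, Rbp4 from 1.36 to 1.67 and Adipoq from 0.90 to 1.20. Retn was called in none of its 14 settings (adjusted p 0.243 to 0.559), and Nampt and both receptors in none of 15. Near 0 the sign was not stable: Nampt was at 0.0798 under library totals alone, and Adipor2 at -0.00280 with DESeq2 size factors, -0.00247 with DESeq2's Wald test, -0.0609 with the muscle term and -0.0370 to 0.0327 over the fits that each left out a library. The log2 difference in the ratio of Adipor1 to Adipor2 ran from -0.0169 to 0.0681 over those fits. That of Cfd to Adipoq ran from 1.86 to 2.13 and that of Adipoq to Lepr from 1.40 to 1.59. Pathway genes called were 5 under library totals, 13 with no filter, 13 with DESeq2's Wald test, 12 with the replicate block, and 5 to 9 with a library left out. Over all genes the count ran from 764 to 1376 with a library left out. Library totals alone moved the all-gene median to 0.19 on the log2 scale and the share of called genes that were higher to 85.4%, from 58.5%, and under it Lepr (-0.30, adjusted p 0.617), Jak2, Retnlg and Ero1a were not called. Library totals leave out the TMM factor, which was 0.722 for non-radiated library 2 and 1.03 to 1.10 for the others. In that library AY036118 took 32.9% of the counts. The cause of the shifts under library totals was not tested. Depth limits Lep, Retn and Rbp4 most.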
